A study of Mus musculus with 20 samples.

Results

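Peaks of 5-formylcytosine (5fC) in the hindbrain of *Tdg* null embryos were compared with those in the carcass of *Tdg* null embryos. The comparison used 6 of the 20 samples of the series, namely 4 hindbrains and 2 carcasses, all from E11.5 mouse embryos that lack the catalytic domain of TDG on both alleles. The deletion replaced that coding sequence with a neomycin-resistance cassette, and null embryos came from crosses of heterozygous parents. Each hindbrain came from an embryo of its own litter, labelled A, O, Q and Z, here called hindbrain 1 to 4 in that order. The carcasses, called carcass 1 and 2, came from embryos i1 and i5 of the litters labelled pair_a and pair_b. The study's list of replicates gives the litters other letters, and it too sets those of the carcasses apart from those of the hindbrains. The hindbrain was dissected from the embryo, and so were the heart and the liver of those carcass embryos, but the sources do not say which parts the carcass still held. Values of *Tdg* null heart (2 samples, from the same embryos i1 and i5), WT hindbrain (4 samples) and WT carcass (2 samples) are given beside the main values for some genes and loci. The WT embryos came from the same litters as the *Tdg* null embryos of that tissue. No litter gave both a hindbrain and a carcass, so tissue, litter and embryo cannot be told apart in this comparison. Whether hindbrain and carcass libraries were prepared or sequenced together is not given in the sources used here, so any such difference cannot be told apart from tissue either.

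5fC is made when TET enzymes oxidise 5-methylcytosine, a mark found in mammals mostly at CpG sites. TDG, thymine DNA glycosylase, cuts 5fC out and so starts its repair to an unmodified cytosine. Without TDG the base is not removed in this way, and 5fC left in the DNA marks places where TET enzymes have acted. The hindbrain gives rise to the cerebellum, pons and medulla. The rest of the embryo body at this age includes limb, face and trunk mesenchyme, somites, skin, gut and vessels. The Hox genes encode homeodomain transcription factors that help to pattern the embryo along its body axis.

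The files hold the start and end of each peak and nothing else, so read depth is unknown. Autosomal peaks of the hindbrains covered 91.4, 68.0, 89.5 and 93.2 Mb, which is 3.82%, 2.84%, 3.74% and 3.89% of the ungapped autosomal sequence. Those of the carcasses covered 137.0 and 191.8 Mb, or 5.72% and 8.01%. Every carcass was thus covered more than every hindbrain, so covered length and tissue cannot be told apart either. To set the samples on one scale, the percentage of bases of a gene body under peaks was divided by the percentage of autosomal bases under peaks in that sample. This quotient is called the scaled share, and a value of 1 is the autosomal average. Tests were made with limma on log2(scaled share + 0.5), and all differences below are hindbrain minus carcass on that scale, which understates differences of genes with low shares. A gene was called where the Benjamini-Hochberg adjusted p was below 0.05 and the 4 hindbrains did not overlap the 2 carcasses. Peaks mark a DNA base and not a transcript, so the tissue labels could not be checked with expressed markers.

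Of 21418 autosomal protein-coding genes, 18280 were at least 2 kb long and 12582 had enough coverage to be tested. In hindbrain 657 genes were higher (5.22% of those tested) and in carcass 262 genes were higher (2.08%). The median difference over all genes tested was 0.15, a shift towards hindbrain that single differences should be read against. When samples were centred on their median gene instead, the split turned to 259 genes higher in hindbrain and 378 in carcass, and after adjustment for GC content and gene length it was 200 and 203. Called in all 3 ways were 167 genes higher in hindbrain and 182 higher in carcass. The count also rested on single samples. Without hindbrain 2, 3 or 4 it was 380, 197 or 436 genes higher in hindbrain, and without carcass 1 or 2 it was 328 or 404. For genes higher in carcass it was 165 without hindbrain 3. Each of the 657 genes stayed higher in hindbrain when any 1 sample was left out. The call rule makes this certain, since groups that do not overlap keep their direction, so it is no support for the calls.

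**Figure D1:**
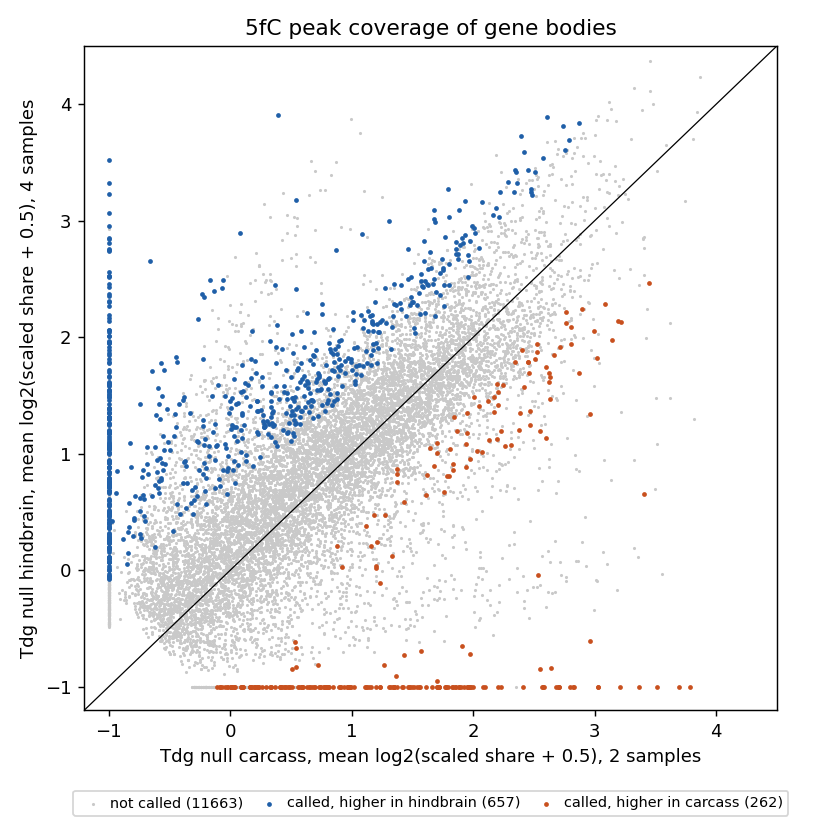
Mean log2(scaled share + 0.5) of 12582 gene bodies in 2 *Tdg* null carcasses (horizontal axis) and 4 *Tdg* null hindbrains (vertical axis), 1 point per gene. The 657 genes called higher in hindbrain lie above the diagonal and the 262 called higher in carcass below it. Genes on the left or lower edge had no base under a peak in that tissue.

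The called genes were shorter than the rest. Their median length was 15.5 kb for those higher in hindbrain and 11.3 kb for those higher in carcass, against 29.1 kb for genes that were not called. Median GC content was 49.3%, 47.0% and 46.0% in the same order. In 199 of the 657 genes higher in hindbrain neither carcass had a base under a peak, and in 159 of the 262 genes higher in carcass no hindbrain had one. For such a gene 1 group has no spread at all, which lowers the error of its fit, and the gene entered the test through the other group alone. The p-values of such genes and windows are a description and no support for a difference.

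The Hox genes were free of peaks in hindbrain. None of the 40 annotated models of the 39 Hox genes had a single base under a peak in any of the 4 hindbrains. Of these models 34 were under 10 kb long, and of all 8453 protein-coding models of that length 65.6% were free of hindbrain peaks too. The other 6 were 10 to 50 kb long, where 19.0% of 8342 were free of them. In the carcasses 9 models had some coverage, and 4 genes, *Hoxb3*, *Hoxb7*, *Hoxa3* and *Hoxd3*, were covered in both samples. With *Hoxa3* annotated as 2 models these were 5 of 40 models (12.5%) covered in both carcasses and no hindbrain, beside 1.25% of all 21418. Under 10 kb it was 1 of 34 Hox models (2.94%), beside 1.86% of all models of that length. At 10 to 50 kb it was 4 of 6 (66.7%), beside 1.19%, and 2 of these 4 were the overlapping models of *Hoxa3*. These shares were counted after seeing the data and are a description. *Hoxb6*, *Hoxc4*, *Hoxd4* and *Hoxd1* were covered in 1 carcass each. Only 5 of the 39 genes passed the filter on low values, and they passed through carcass alone, so their count is a description.

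*Hoxb3* (ENSMUSG00000048763.5, NCBIM37 chr11:96184640-96207999, plus strand) had scaled shares of 2.77 and 3.10 in the carcasses and 0 in each hindbrain. *Hoxb7*, in the same cluster, had 3.02 and 1.95 in the carcasses. Both genes lay well above the autosomal average in carcass and had no base under a peak in hindbrain. The longer of the models of *Hoxa3* had carcass values of 1.06 and 0.759, and *Hoxd3* had 0.529 and 0.515. All 4 genes met the call rule, beside 2.08% of all genes tested, which is a description here, since the carcass values alone brought them into the test. With each sample cut back to an equal covered length *Hoxb3* and *Hoxb7* no longer met it. *Hoxb7* did not meet it with peaks of at least 600 bp, nor *Hoxd3* after adjustment for GC content and length, and *Hoxd3* had too little coverage to be tested with an equal covered length, with 10 kb flanks or with peaks of at least 600 bp. The rule was also missed by *Hoxa3* without hindbrain 3 and by *Hoxd3* without any 1 hindbrain. The *Tdg* null hearts, which share their embryos with the carcasses, had 0.249 and 0 over *Hoxb3* and no base under a peak over the other 3 genes. No WT hindbrain or WT carcass had a peak in any Hox gene.

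Carcass peaks in *Hoxb3* left 4 stretches, of 2200 bases in all, that were under peaks of both carcasses and of no hindbrain. The longest lies in an intron at chr11:96195601-96196300, and its central 200 bases are shown here for the plus strand of NCBIM37 because they carry the contrast at this gene. Capitals mark the 5 CpG sites, the context in which 5-methylcytosine mostly lies.
Hoxb3 stretch, chr11:96195851-96196050: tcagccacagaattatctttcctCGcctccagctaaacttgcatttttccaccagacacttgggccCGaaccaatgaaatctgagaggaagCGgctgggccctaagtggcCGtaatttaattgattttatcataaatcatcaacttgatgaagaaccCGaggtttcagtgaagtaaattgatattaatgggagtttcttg
This run also holds 1 match of TGATTNAT on either strand, a letter pattern taken up again below.

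**Figure D2:**
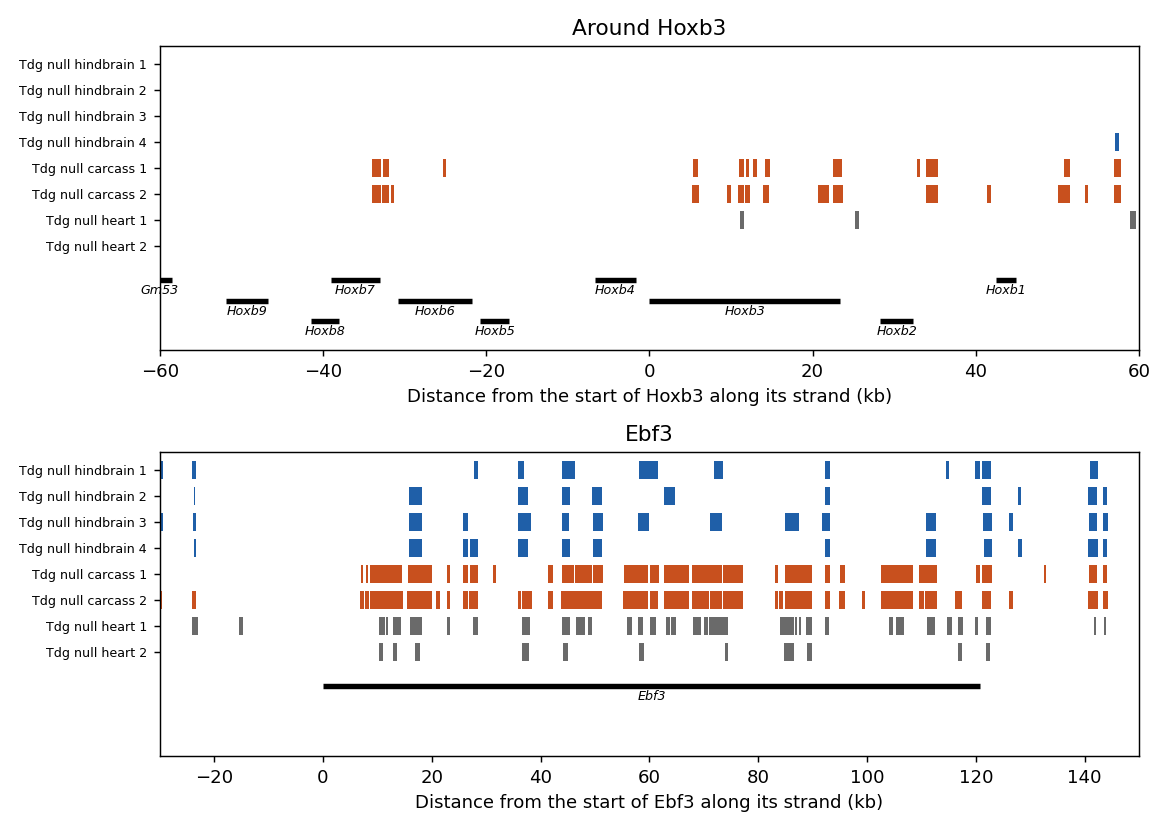
Peaks of each *Tdg* null sample around *Hoxb3* (upper panel) and over *Ebf3* (lower panel), by distance in kb from the start of the gene. Bars are peaks and black lines are protein-coding genes. Over the HoxB genes the hindbrain rows are empty between *Hoxb9* and *Hoxb1* while both carcasses carry peaks. Over *Ebf3* all samples carry peaks, but the carcasses carry more of them than the hindbrains and are covered over more of the gene.

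Of 37 genes listed for the BMP, TGF-beta, FGF, Wnt and hedgehog pathways 33 were tested, of which 2 were higher in hindbrain and 1 was higher in carcass, beside 5.22% and 2.08% of all genes tested. Counts this small are near the share over all genes, and the 3 genes are given as single genes. *Fgfr3*, a receptor for fibroblast growth factors (chr5:34064373-34079716), had scaled shares of 2.05, 3.21, 3.31 and 3.35 in the hindbrains and of 0 and 0.407 in the carcasses. The lowest hindbrain was thus far above the higher carcass, with a difference of 2.35 (SE 0.30, adjusted p = 0.0130). Both hearts had no base under a peak in this gene. After adjustment for GC content and length its adjusted p was 0.0612. *Smo*, which encodes the transducer of hedgehog signals Smoothened (chr6:29685694-29711365), had 3.16, 3.70, 2.50 and 2.40 in the hindbrains and 0.476 and 0.681 in the carcasses. Its difference was 1.66 (SE 0.20, adjusted p = 0.0101, or 0.0605 without carcass 1), and the hearts lay between the groups at 1.36 and 1.61. *Bmp2*, a secreted bone morphogenetic protein, had no base under a peak in any hindbrain and 0.977 and 0.814 in the carcasses (adjusted p = 0.0100). With 10 kb added on either side its difference went from -1.48 to -0.80 and the call was lost (adjusted p = 0.314). The groups did not overlap in 5 of the 33 in the hindbrain direction and in 13 in the carcass direction, beside 26.2% and 12.1% of all genes tested. Among the 13 was *Smad7*, an inhibitor of TGF-beta signals, with 0, 2.23, 1.79 and 1.72 in the hindbrains and 11.7 and 10.02 in the carcasses, which was not called (adjusted p = 0.0744).

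The stretch behind part of the *Smo* value is a tandem repeat. The gene holds 1 stretch of 1500 bases under peaks of all 4 hindbrains and neither carcass, in an intron at chr6:29697601-29699100. Its central 200 bases on the plus strand contain no CpG, and the 300 bases around the centre hold 55 distinct words of 8 bases, against 291 in the *Hoxb3* stretch.
Smo stretch, chr6:29698251-29698450: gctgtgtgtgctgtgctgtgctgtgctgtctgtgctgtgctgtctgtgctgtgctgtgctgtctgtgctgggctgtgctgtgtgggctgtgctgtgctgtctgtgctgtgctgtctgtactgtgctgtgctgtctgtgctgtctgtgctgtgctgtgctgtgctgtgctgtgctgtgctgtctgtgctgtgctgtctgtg
*Smo* also had peaks in each WT hindbrain, with scaled shares of 186, 37.6, 14.5 and 196, and none in either WT carcass. The WT hindbrains were covered over 0.0357% to 0.484% of the autosomes, so that 1 peak gives a high scaled share there. The part of the repeat in the difference at *Smo* was not tested.

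Of the 6 lists for matrix, muscle and neurons, 2 of 29 matrix genes, 1 of 20 muscle genes and 1 of 27 genes of neuronal differentiation were called and none of the others, beside 5.22% and 2.08% of all genes tested. The 4 genes are given as single genes. *Col12a1*, which encodes a fibril-associated collagen, was higher in carcass, with 1.07, 0.823, 1.16 and 0.986 in the hindbrains and 2.35 and 2.04 in the carcasses (difference -0.84, adjusted p = 0.0306). *Acan*, the aggrecan gene of cartilage, went the other way, with 1.02, 1.26, 1.30 and 1.17 against 0.567 and 0.486 (0.71, adjusted p = 0.0441). Neither gene overlapped between the tissues. *Myh3*, the embryonic myosin heavy chain of skeletal muscle, had 2.73, 3.23, 2.79 and 2.998 in the hindbrains and 1.75 and 1.87 in the carcasses (0.57, adjusted p = 0.0420). *Mapt*, which encodes the neuronal microtubule protein tau, had 2.50, 2.59, 2.68 and 2.35 against 1.49 and 1.59 (0.57, adjusted p = 0.0367). After adjustment for GC content and length the adjusted p was 0.143 for *Mapt*, 0.311 for *Myh3*, 0.166 for *Acan* and 0.10 for *Col12a1*, so these 4 calls were lost under that setting. With median centring *Mapt* (0.34, adjusted p = 0.134), *Myh3* (0.34, 0.177) and *Acan* (0.49, 0.134) lost theirs, while *Col12a1* kept it (-1.06, 0.0157). Without any 1 hindbrain *Mapt* (adjusted p from 0.0568 to 0.104), *Myh3* (0.0570 to 0.101) and *Col12a1* (0.0501 to 0.0692) lost their call. Among these fits *Acan* kept it only without hindbrain 1 (0.0476). With the hearts in the fit *Mapt* (0.0596) and *Myh3* (0.161) lost theirs. All 4 calls were lost when either carcass was left out, with an adjusted p between 0.0613 and 0.154.

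Many of the genes with the largest differences were short, where a single peak fills much of the gene body. To describe differences spread over longer genes, the 10 called genes of at least 50 kb with the largest difference on each side were also taken, a choice made after values had been seen. Of the called genes 58 higher in hindbrain and 59 higher in carcass were this long.

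Among the long genes higher in hindbrain, *Usp48*, which encodes a deubiquitinase (chr4:137149670-137214452), had 1.70, 1.69, 1.78 and 1.94 in the hindbrains and 0.431 and 0.385 in the carcasses. The 4 hindbrains lay close together and well above the carcasses, with means of 1.78 ± 0.119 (SD, n = 4) and 0.408 ± 0.0327 (SD, n = 2). The difference was 1.32 (SE 0.12, adjusted p = 0.00403) and passed the threshold under each of the 16 alternative settings. *Mapre3*, a protein that binds the growing ends of microtubules, had 1.32, 1.85, 1.25 and 1.05 in the hindbrains and 0 and 0.145 in the carcasses (adjusted p = 0.0145). *Kif17*, a kinesin motor, had 1.27, 1.09, 1.30 and 1.30 against 0.203 and 0.145 (adjusted p = 0.00623). *Trp73*, a transcription factor of the p53 family, had 1.15, 1.43, 1.97 and 1.44 against 0.333 and 0.446 (adjusted p = 0.0300). The others were *Gorasp2*, *Abca3*, *Klhl18*, *Papd5*, *Lepr*, the leptin receptor gene, and *Mettl16*, with differences of 1.13 to 1.35. The hearts divided these genes. Over *Usp48* they had 1.83 and 2.27 and over *Mapre3* 1.38 and 1.15, in or above the range of the hindbrains. Over *Trp73* they had 0.277 and 0.40, near the carcasses. *Kif17* lost its call with peaks of at least 600 bp (adjusted p = 0.0925) and after adjustment for GC content and length (0.0508). After that adjustment *Abca3* (0.0646), *Klhl18* (0.0841), *Papd5* (0.0536) and *Mettl16* (0.0592) lost theirs too. *Klhl18* also had peaks in each WT hindbrain, with scaled shares of 36.5, 9.50, 4.48 and 38.6, and in no WT carcass. *Mapre3* lost its call without hindbrain 3 (adjusted p = 0.0516) or carcass 1 (0.0795), and *Trp73* passed under 8 of the 16 alternatives.

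Among the long genes higher in carcass, *Ebf3*, a transcription factor of the early B-cell factor family (chr7:144385356-144506128, minus strand), had 2.61, 2.97, 4.14 and 2.62 in the hindbrains and 8.58 and 6.77 in the carcasses. The gene was thus covered above the autosomal average in both tissues, and more in carcass (difference -1.2, SE 0.21, adjusted p = 0.0317). The hearts had 3.19 and 2.14, at the level of the hindbrains. *Aldh1a2*, whose product makes retinoic acid, had 0.586, 0.131, 0.432 and 0.670 in the hindbrains and 1.82 and 1.88 in the carcasses (adjusted p = 0.0488). The hearts had 0.883 and 0.417 there. *Chst15*, a sulfotransferase of chondroitin chains, had 1.48, 1.60, 1.48 and 1.89 in the hindbrains and 4.46 and 4.44 in the carcasses, and *Eif3h*, a subunit of a translation initiation factor, had 1.36, 1.38, 1.66 and 1.69 against 3.76 and 3.64. These 2 genes passed the threshold under each of the 16 alternatives (adjusted p = 0.00529 and 0.00976). *Vgll4*, a cofactor of TEAD transcription factors, had hindbrain values between 1.60 and 2.42 and carcass values of 5.34 and 4.77, and the hearts reached 5.63 and 7.56. In the sparsely covered WT hindbrains *Vgll4* had 14.5, 7.35, 1.70 and 15.3, against 3.04 and 2.27 in the WT carcasses. In the same order *Ebf3* had 0, 17.3, 4.62 and 0 against 4.59 and 2.25, and *Eif3h* 0, 2.04, 1.05 and 0 against 2.56 and 1.65. The WT groups overlapped for each of these genes. The others were *Tmem104*, *Cyb5r4*, *Mtx2*, *Zfp608* and *Ccdc85c*, with differences of -1.62 to -1.17. Without the filter on low values *Mtx2* (adjusted p = 0.0528) and *Ccdc85c* (0.0864) lost their call. *Ebf3* passed under 9 of the 16 alternatives and lost its call without hindbrain 1, 2 or 4, without either carcass, without the filter on low values (adjusted p = 0.0543) and with peaks of at least 600 bp (0.0647). Without carcass 1 the adjusted p was 0.146 for *Ebf3*, 0.185 for *Aldh1a2* and 0.105 for *Vgll4*, and *Aldh1a2* passed under 5 of the 16 alternatives.

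The longest stretch of *Ebf3* under peaks of both carcasses and of no hindbrain was 5900 bases of intron at chr7:144491601-144497500. In all 14 such stretches with 26200 bases lay in the gene. The central 200 bases of the longest show 6 CpG sites, in capitals, on the plus strand.
Ebf3 stretch, chr7:144494451-144494650: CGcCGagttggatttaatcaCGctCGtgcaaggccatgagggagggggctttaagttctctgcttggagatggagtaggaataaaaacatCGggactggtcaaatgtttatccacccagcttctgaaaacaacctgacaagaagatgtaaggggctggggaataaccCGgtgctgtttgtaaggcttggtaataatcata

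**Figure D3:**
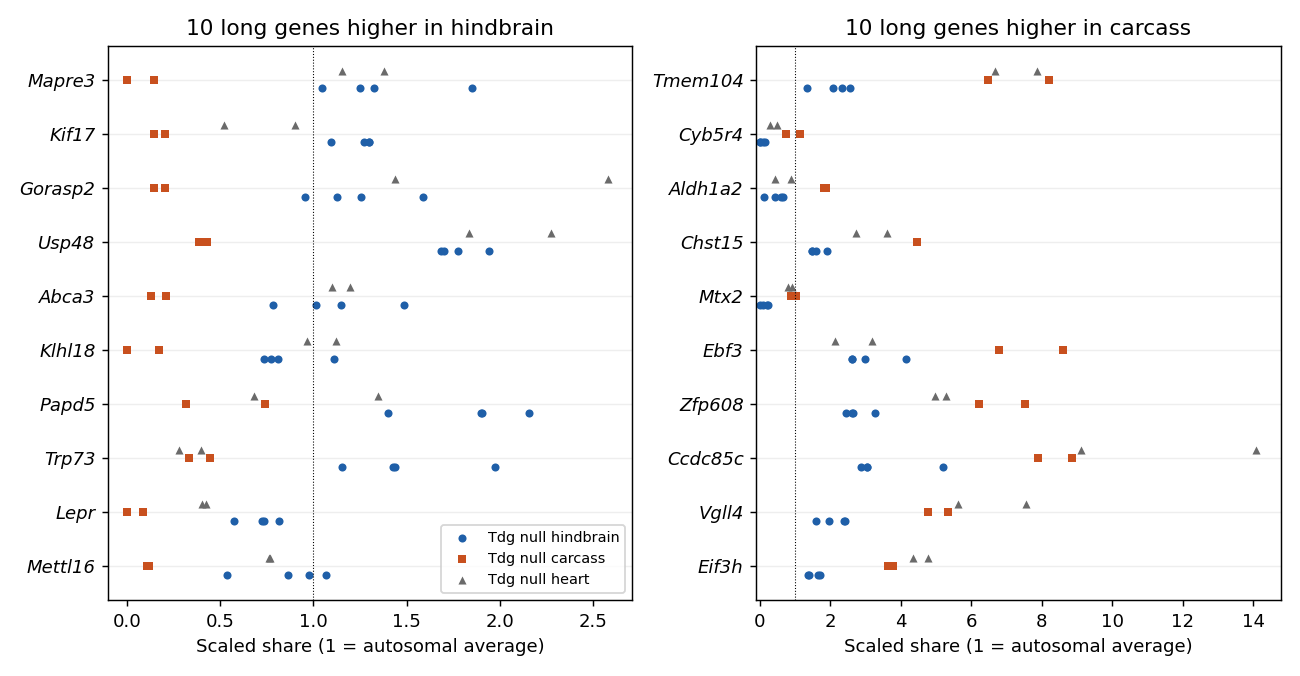
Scaled share of 20 gene bodies of at least 50 kb in each *Tdg* null sample (circles, hindbrain; squares, carcass; triangles, heart), with the autosomal average of 1 as a dotted line. The left panel holds the 10 with the largest difference among genes called higher in hindbrain and the right panel the 10 among those called higher in carcass. Heart lies near the hindbrains for *Usp48* and *Ebf3* and near the carcasses for *Trp73* and *Tmem104*.

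The 10 largest differences of all in the hindbrain direction belonged to genes of 2008 to 4929 bases with no base under a peak in either carcass. *Drap1*, a corepressor of transcription, had 10.8, 12.95, 11.1 and 9.45 in the hindbrains (adjusted p = 0.000479). *Tbx6*, a T-box transcription factor of paraxial mesoderm, had 8.38, 8.67, 7.21 and 3.80 (adjusted p = 0.00310), and *Tuba1b*, an alpha tubulin, had 6.67, 8.97, 5.11 and 4.91 (adjusted p = 0.00143). The others were *Mustn1*, *Rnf208*, *Btbd6*, *B3gnt9-ps*, *BC048679*, *Gm5082* and *D17H6S56E-5*. With 10 kb added on either side the calls of *Mustn1* (0.62, adjusted p = 0.504), *Gm5082* (0.31, 0.362) and *D17H6S56E-5* (0.94, 0.111) were lost. Of these 10 genes, *D17H6S56E-5* alone had a peak in a WT hindbrain or WT carcass, namely in WT hindbrain 3. After adjustment for GC content and length *Drap1* (adjusted p = 0.0646), *Tuba1b* (0.0647), *Rnf208* (0.0701) and *B3gnt9-ps* (0.0814) lost their call. With an equal covered length *Tuba1b* and *B3gnt9-ps* (both 0.186) and *Mustn1* (0.188) lost it, and with peaks of at least 600 bp *Btbd6* (0.221), *Rnf208* (0.223) and *Mustn1* (0.234). *Mustn1* also lost it without carcass 1 (0.0687) or carcass 2 (0.0642).

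The 10 largest in the carcass direction had no base under a peak in any hindbrain and were 2031 to 8280 bases long. *Scx*, the gene of the tendon transcription factor scleraxis, had 17.5 and 6.75 in the carcasses (adjusted p = 0.00237). *Cdk5r1*, an activator of the kinase Cdk5, had 14.3 and 10.8 (adjusted p = 0.000479), and *S100a4*, a calcium-binding protein, had 5.37 and 8.04 (adjusted p = 0.000688). The others were *Gm16140*, *2700081O15Rik*, *Irs3*, *Lgals7*, *Pnrc2*, *Pnma1* and *Arl4d*. With 10 kb added on either side, *Pnrc2* and *Pnma1* turned to the hindbrain side by 0.19 and 0.047. Under that setting 5 others lost their call, namely *S100a4* (-0.21, adjusted p = 0.720), *Arl4d* (-0.46, 0.477), *Lgals7* (-0.85, 0.243), *Irs3* (-1.77, 0.0853) and *Gm16140* (-0.64, 0.0632). None of these 10 genes had a peak in a WT hindbrain or WT carcass. With an equal covered length *Scx* (adjusted p = 0.234), *Pnma1* (0.235), *S100a4* (0.236) and *Arl4d* (0.236) lost their call. With the hearts in the fit *Pnrc2* (0.0520) and *S100a4* (0.0542) did.

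In all, 15 lists of genes for neural, mesodermal and other cell types were looked at, with 394 entries, of which 1 was not found in the annotation. *Mapt* was the only called gene of the 4 lists for neurons and of the list of hindbrain patterning factors. Of 35 patterning factors only 8 were tested, and the groups did not overlap in 3, all higher in hindbrain, beside 26.2% of all genes tested in that direction. With so few genes this count says little about the list. The 3 were *Pax2*, *Pax5* and *Pax8*, paired-box genes of the midbrain and hindbrain region. *Pax5* had 2.44, 2.75, 2.57 and 3.28 in the hindbrains and 1.77 and 1.64 in the carcasses, and it was not called (adjusted p = 0.0696).

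The 31 axon guidance genes, whose products steer growing axons, had differences from -0.67 to 0.49. The groups did not overlap in 17 of them towards carcass and in 1, *Plxna1*, towards hindbrain, and overlapped in 13, beside 12.1% and 26.2% of all genes tested. None was called, beside 2.08% and 5.22%. Their median difference was -0.27, beside 0.15 for all genes tested, and after adjustment for GC content and length it was -0.08 beside 0.06. *Sema3d*, a secreted semaphorin, had 0.866, 0.890, 0.923 and 0.849 in the hindbrains and 1.46 and 1.66 in the carcasses, and *Robo1*, a receptor for Slit proteins, had 2.44, 3.17, 2.82 and 3.16 against 4.33 and 3.84. *Dcc*, the netrin receptor, overlapped between the tissues. For 26 listed genes of neuronal adhesion 24 were tested, with a median of -0.09, and for 32 channels and receptors 27 were tested, with a median of 0.07. For 30 genes of neuronal differentiation 27 were tested, with a median of -0.15. After adjustment for GC content and length the 3 medians were 0.16, 0.30 and 0.06 in the order given, beside 0.06 for all genes, so those for adhesion and differentiation changed sign. Median centring moved every gene alike and so left each list where it was against all genes.

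Of 41 limb, face and mesenchyme transcription factors 25 were tested and none was called, with a median of -0.14. At 5.22% and 2.08% over all genes, a list of this size would hold few calls in any case. Of 24 muscle genes 20 were tested with a median of -0.06, of 30 collagen and matrix genes 29 with a median of -0.02, and of 24 endothelial and blood genes 17 with a median of 0.20. For 21 genes of surface and gut epithelium 16 were tested with a median of 0.06. After adjustment for GC content and length the medians were -0.15 for the limb, -0.13 for the muscle, -0.04 for the matrix, 0.02 for the endothelial and 0.02 for the epithelial list, beside 0.06 for all genes. Of 24 ribosomal protein genes only 6 were tested, with differences from -1.21 to 1.99.

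**Figure D4:**
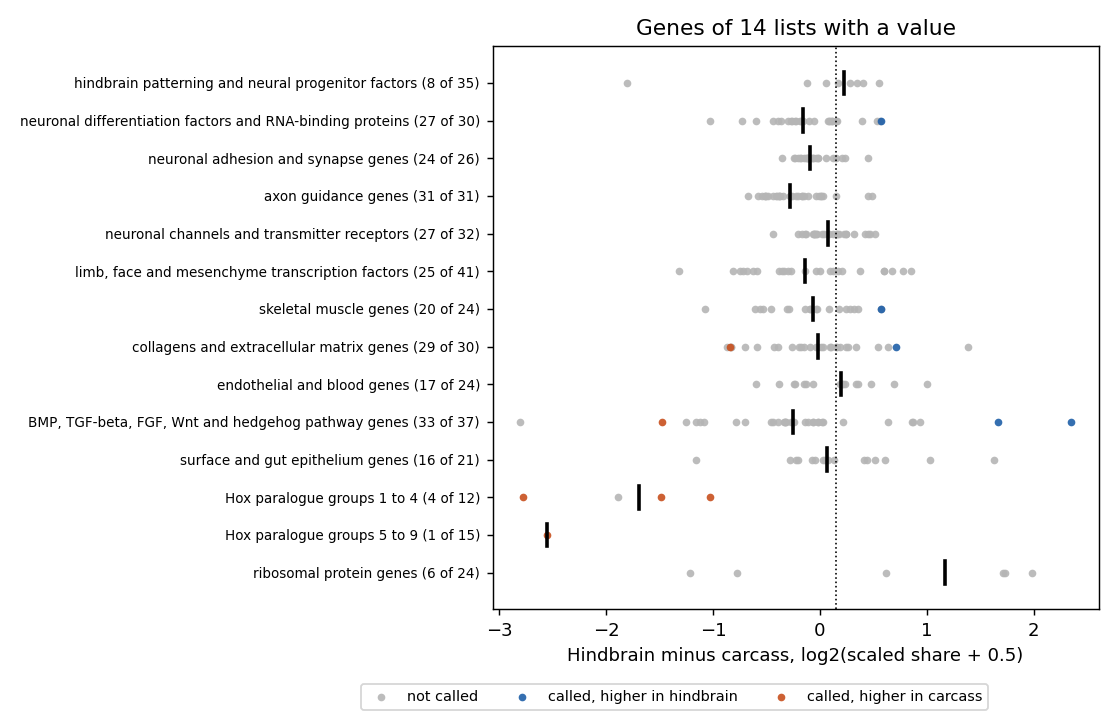
Difference between hindbrain and carcass in log2(scaled share + 0.5) for each tested gene of 14 lists, with the median of each list as a black bar and that of all genes tested, 0.15, as a dotted line. The numbers give tested genes of listed genes. Most lists lie around the dotted line or just left of it, and the 5 tested Hox genes lie left of -1.

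Windows of 50 kb covered loci outside genes too. Of 34295 windows tested, 1390 were higher in hindbrain (4.05%) and 1252 in carcass (3.65%). With median centring the split was 1019 and 1769, and with peaks of at least 600 bp it was 745 and 1285. With carcass 1 or carcass 2 left out, limma called 0 windows, although 5314 and 5845 had an unadjusted p below 0.05, and the counts were 716 and 710 without hindbrain 2 and 270 and 343 without hindbrain 3. The window with the next largest difference towards carcass after that of *Bach2* spans *Hoxb3* to *Hoxb7* (chr11:96150001-96200000), with 0 in each hindbrain and 1.75 and 1.40 in the carcasses (adjusted p = 0.00384). The largest lies in *Bach2*, a transcription factor gene (chr4:32500001-32550000), with 0.262, 0, 0.802 and 0.308 in the hindbrains and 3.60 and 3.37 in the carcasses (difference -2.32, adjusted p = 0.0111). The hearts had 3.38 and 3.72 in that window. The third, with *Gm20388* (chr8:122900001-122950000), had 1.52, 3.17, 1.34 and 2.00 in the hindbrains and 10.1 and 8.09 in the carcasses. The order of these windows depended on the pseudocount. At 0.1 the window of *Hoxb3* to *Hoxb7* had a larger difference than that of *Bach2* (-4.06 and -3.40). At 1 the window of *Gm20388* did (-1.779 and -1.771).

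The windows with the largest differences towards hindbrain had no carcass peak at all. That at chr10:7200001-7250000 had 1.26, 1.27, 2.84 and 3.49 in the hindbrains (adjusted p = 0.0117), that at chr8:20000001-20050000 had 0.995, 1.90, 2.41 and 2.47, and that at chr5:33050001-33100000 with *Pisd* had 1.73, 1.83, 1.98 and 1.75. The first and the third also had peaks in each of the 4 WT hindbrains and in no WT carcass. So did each of the windows ranked 4 to 8 by difference towards hindbrain, so this pattern was frequent at the top of the ranking. This pattern was found in 26 of the 1390 windows higher in hindbrain (1.87%), in 0 of the 1252 higher in carcass and in 69 of all 34295 (0.201%). Peaks in both WT carcasses and no WT hindbrain were found in 347 of the windows higher in carcass (27.7%), in 181 of those higher in hindbrain (13.02%) and in 6330 of all windows (18.5%).

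At the scale of single peaks, 5159 stretches of at least 200 bp were under peaks of all 4 hindbrains and of neither carcass, and 41294 were under peaks of both carcasses and of no hindbrain. They covered 2.27 and 29.6 Mb. The second number needs agreement of 2 samples and the first of 4, and the carcasses were covered more, so the numbers are no measure of how much either tissue holds. When the longest peaks of each sample were kept up to an equal covered length they were 13570 and 5193. That setting also removed peaks by size, and unevenly, since the shortest peak kept was 900 and 1200 bp in the carcasses and 200 to 600 bp in the hindbrains. Its values therefore mix covered length with peak size here and wherever an equal covered length is named. Without hindbrain 1 or carcass 2 the first was 7759 or 12395, and without carcass 1 the second was 85606. Of the hindbrain stretches 36.6% lay in introns, 14.2% touched exons and 47.4% were intergenic, and of the carcass stretches these shares were 46.1%, 8.49% and 44.1%.

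For each kind 3 of the longest stretches, outside UTRs and chosen by the rule given with the processing, are shown as the central 100 bases on the plus strand of NCBIM37, with CpG sites in capitals to let the 2 kinds be set side by side. The hindbrain stretches were 2700, 1900 and 1800 bases long and the carcass stretches 7300, 7000 and 6600 bases.
Hindbrain, intergenic, chr13:74667101-74667200: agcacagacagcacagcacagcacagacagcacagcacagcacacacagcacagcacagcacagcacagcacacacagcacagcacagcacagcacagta
Hindbrain, 1516 bases from the start of Coil, chr11:88830001-88830100: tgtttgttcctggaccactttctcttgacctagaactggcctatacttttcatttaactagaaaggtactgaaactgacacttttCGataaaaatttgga
Hindbrain, intergenic near Ly6c2, chr15:74916651-74916750: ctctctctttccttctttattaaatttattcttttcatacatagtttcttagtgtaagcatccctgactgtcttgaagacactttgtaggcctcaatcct
Carcass, Snx18, chr13:114404401-114404500: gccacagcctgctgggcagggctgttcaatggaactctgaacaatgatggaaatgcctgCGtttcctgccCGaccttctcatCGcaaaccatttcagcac
Carcass, intergenic, chr6:50770751-50770850: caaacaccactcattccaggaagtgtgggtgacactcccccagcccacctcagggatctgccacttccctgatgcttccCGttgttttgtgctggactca
Carcass, intergenic near Dlk1, chr12:110640251-110640350: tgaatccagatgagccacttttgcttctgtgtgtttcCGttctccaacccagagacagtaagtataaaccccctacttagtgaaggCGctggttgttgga
The first is a tandem repeat of cacag units with 42 distinct words of 8 bases in its central 300 bases. The other 5 hold 274 to 292.

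Tandem repeats of this kind were rare but unevenly spread. Peaks whose central 300 bases held fewer than 200 distinct words made up 0.254%, 0.236%, 0.248% and 0.277% of the peaks of the *Tdg* null hindbrains and 0.0646% and 0.0781% of those of the carcasses. Each hindbrain lay above both carcasses, and the two-sided exact permutation test of 4 against 2 gave p = 0.133, the smallest value this design allows. In the WT hindbrains the share was 13.955%, 4.66%, 2.96% and 14.5%, highest in the samples with the fewest peaks, and in the WT carcasses it was 0.403% and 0.444%. Among every 20th window of the autosomes it was 1.25%. Of the stretches under peaks of 1 tissue only, 85 of 5158 in hindbrain and 17 of 41294 in carcass were of this kind. These counts of repeats were chosen after seeing the data.

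A second difference in sequence was a short letter pattern. TGATTNAT, with N for any base, has the letters of sites bound by PBX proteins together with Hox proteins. Searched on both strands in the central 200 bases, it was found in 3.24%, 4.25%, 3.82% and 4.82% of the peaks of the *Tdg* null hindbrains and in 6.58% and 6.49% of those of the carcasses. The groups did not overlap, with means of 4.03% ± 0.668 (SD, n = 4) and 6.53% ± 0.0650 (SD, n = 2) and p = 0.133 by the two-sided exact permutation test (0.333 adjusted over the 10 patterns searched). Of all autosomal windows of 200 bases 3.65% held it. The WT samples, other embryos of the same litters with far fewer peaks, showed the same order, with 3.10%, 3.84%, 4.42% and 2.66% in hindbrain and 7.04% and 6.97% in carcass (exact permutation p = 0.133, 0.267 adjusted over 10). The hearts of the carcass embryos had 2.58% and 2.17%, below each of the other samples named.

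In the stretches under peaks of 1 tissue only the difference was wider. TGATTNAT stood in the centre of 1.53% of the hindbrain stretches and of 9.62% of the carcass stretches, beside 4.36% of stretches under peaks of all 6 samples. With an equal covered length the shares were 2.73% and 5.85%, a choice made after seeing the data. Median GC content was 47.8% in the hindbrain and 45.1% in the carcass stretches, and its part in this difference was not tested. The 3 carcass stretches with most matches in genes with a name are shown with 10 bases on either side, with the matches in capitals. They lie in introns of *Unc5c*, a netrin receptor gene, *Rora*, a nuclear receptor gene, and *Ulk4*, a kinase gene.
Unc5c, chr3:141135234-141135338: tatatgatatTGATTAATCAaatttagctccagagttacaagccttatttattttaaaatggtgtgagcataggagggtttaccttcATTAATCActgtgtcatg
Rora, chr9:69022754-69022790: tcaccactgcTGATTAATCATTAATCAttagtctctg
Ulk4, chr9:121080640-121080674: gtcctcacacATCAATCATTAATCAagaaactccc
A match is a run of letters and not a sign that a factor binds there.

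ACAAAG, the letters at the core of sites of SOX and TCF/LEF proteins, was more frequent on the hindbrain side. It was found in 20.6%, 21.0%, 20.3% and 19.99% of the peaks of the *Tdg* null hindbrains and in 18.4% and 17.8% of those of the carcasses (exact permutation p = 0.133, 0.333 adjusted over 10). The WT samples had 22.4%, 22.7%, 21.9% and 16.3% in hindbrain and 16.0% and 16.4% in carcass, so WT hindbrain 4 overlapped the carcasses. Of the stretches under peaks of 1 tissue only, 26.1% in hindbrain and 16.6% in carcass held it, beside 17.9% of all windows. With an equal covered length the shares were 21.9% and 17.6%. Among the peaks of the hearts 17.0% and 16.8% held it. Without the stretches of few distinct words the shares of all stretches became 26.5% and 16.6%. The hindbrain stretches in named genes with most matches, in *Slc25a21* with 10 and *Defb22* with 4, are repeats with 226 and 177 distinct words. They are shown with the next, in *Lrrc48* with 3, and capitals mark the matches.
Slc25a21, chr12:57988479-57988576: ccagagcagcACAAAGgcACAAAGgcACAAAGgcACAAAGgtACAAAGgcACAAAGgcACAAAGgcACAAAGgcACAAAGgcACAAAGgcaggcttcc
Defb22, chr2:152311519-152311688: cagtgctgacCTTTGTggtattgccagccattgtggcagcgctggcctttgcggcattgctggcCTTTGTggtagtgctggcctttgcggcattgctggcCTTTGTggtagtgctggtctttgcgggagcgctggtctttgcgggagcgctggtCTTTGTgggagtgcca
Lrrc48, chr11:60207061-60207224: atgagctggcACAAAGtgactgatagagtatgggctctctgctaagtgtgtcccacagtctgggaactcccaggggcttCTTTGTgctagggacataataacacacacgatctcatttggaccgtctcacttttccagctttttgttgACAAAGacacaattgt

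**Figure D5:**
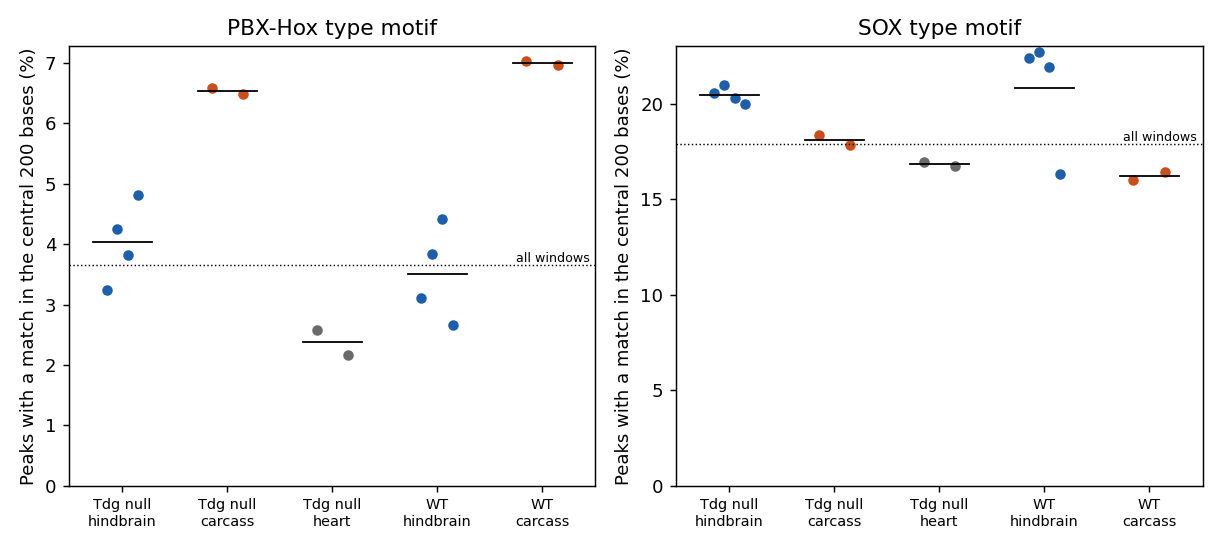
Share of the peaks of each sample with a match of TGATTNAT (left panel, PBX-Hox type) or ACAAAG (right panel, SOX type) in their central 200 bases, in percent, with the group mean as a bar and the share of all autosomal windows as a dotted line. The carcasses of both genotypes lie between 6.49% and 7.04% in the left panel, above each hindbrain and heart.

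In the *Tdg* null samples the means of the other 8 patterns differed by at most 1.24 percentage points. Matches of different patterns were counted separately and may overlap. CAGCTG, of E-box type, was found in 18.2% ± 0.487 of hindbrain peaks and 17.0% ± 0.555 of carcass peaks (SD, n = 4 and 2), and GATAAG, of GATA type, in 5.49% ± 0.107 and 6.05% ± 0.157. For neither pattern did the groups overlap in *Tdg* null samples, each with exact permutation p = 0.133. Of all windows 7.37% held CAGCTG and 7.21% held GATAAG. In WT samples CAGCTG went the other way, with means of 15.1% in hindbrain and 17.1% in carcass. GATAAG kept its direction there (4.28% and 5.21%), and for both patterns the WT groups overlapped. CAGCTG stood in 15.7% of the hindbrain stretches and 16.0% of the carcass stretches. For the remaining 6 patterns the groups of *Tdg* null samples overlapped. These were CAGATG, another E-box (15.04% of all windows), TAATTA of homeodomain type (7.15%), TGACTCA of AP-1 type (3.14%), GGAATG of TEAD type (10.8%), ATGCAAA of POU type (5.0%) and TTGGCA of NFI type (9.83%). In the WT samples the groups did not overlap for 4 of these 6. GGAATG and CAGATG were lower in WT hindbrain by differences of -3.57 and -3.38 percentage points, beside -3.50 for TGATTNAT. TGACTCA differed by -0.71 and TAATTA by 1.53, each with exact permutation p = 0.133.

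The WT samples gave another view of the called genes, in embryos that the calls did not use, though of the same litters. Of the 657 genes higher in *Tdg* null hindbrain 315 had a peak in some WT hindbrain or carcass, and in 35.9% of those WT hindbrain was the higher group. Of the 262 genes higher in carcass 121 had a WT peak, and in 85.1% WT carcass was higher. Over all genes tested 7319 had a WT peak, and WT hindbrain was higher in 21.4% and WT carcass in 78.6%. The WT hindbrains had peaks over so little of the genome that most genes were at 0 there. These shares are a description, since the same WT samples enter each of them.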

How the data were processed

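Per the study's methods, 5fC in sonicated DNA was captured through a biotinylated chemical probe and sequenced. The authors removed adapters with trim_galore and mapped reads by Bowtie2 (defaults) to the mouse assembly NCBIM37, also named mm9. For every pull-down separately, SeqMonk's MACS caller gave the peaks (p cutoff 1e-05, fragment size 200 bp). The use of an input or the removal of duplicates is not given in the sources used here. The deposited files give peak positions with no other value, on a grid of 100 bp read as 1-based. Here, autosomal peaks were set against gene bodies of the GENCODE annotation for NCBIM37 (at least 2 kb, mean scaled share of at least 0.2) and windows of 50 kb. Tests used limma 3.58.1 in R 4.3.3 (lmFit, eBayes with trend) over all genes, and the procedure was tried on simulated data. There, 0, 12, 21 and 33 of 50 genes shifted by 0.5, 1, 1.5 and 2 were recovered. Of 12382 genes with no shift 7 were called. A gene that was not called may therefore still differ. Coverage, exact tests and plots used scipy 1.17.1, numpy 2.4.6, matplotlib 3.10.9 and pandas 2.3.3 under Python 3.11.15. Genes named are the 10 largest called differences per side, called members of the lists (at most 4 a list), the 3 largest windows per side and the 3 longest stretches per side (none from chromosome 18), with the exceptions stated. Of 394 listed genes 390 matched by symbol, 3 by an older symbol and 1 not. Members and lists were chosen with earlier results of these data known. Alternatives were 2 other pseudocounts, no filter, genes of at least 10 kb, flanks of 10 kb, peaks of at least 600 bp, equal covered length, other centring, adjustment for GC content and length, heart in the fit and each sample left out. P-values measure the spread between these embryos. An exact test of 4 against 2 samples has 15 assignments.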

Additional observations from a re-analysis of the deposited data

Results flagged for a closer look

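In 4 of 47 groups of 4 samples tested, 1 sample stood far from the others, and chance alone gives about 1 in 20. The ratio of the gap to the range of the group, above Dixon's critical value in each case, was 0.913 for *Fgfr3* in *Tdg* null hindbrain, where hindbrain 1 was lowest. It was 0.876 for *Kif17*, where hindbrain 2 was lowest, and 0.899 for *Ccdc85c*, where hindbrain 2 was highest. For the covered length of the *Tdg* null hindbrains it was 0.854, with hindbrain 2 the least covered.

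*Gorasp2* was higher in hindbrain in *Tdg* null embryos, but in WT embryos both carcasses (0.790 and 1.16) lay above the 4 hindbrains, none of which had a base under a peak. The WT difference was -1.55, and the difference between the genotypes was not tested. WT carcass was the higher group in 64.1% of genes called higher in hindbrain that had a WT peak. Over all genes tested with a WT peak it was higher in 78.6%, so this order was common.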

How the results depend on the processing

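No paired analysis was possible because hindbrain and carcass shared 0 litters. Of 656 values of the 51 named genes under alternatives, 654 kept their direction, 486 of them with an adjusted p below the threshold (limma), and 168 did not pass. The exceptions were *Pnrc2* at 0.19 and *Pnma1* at 0.047 with 10 kb on either side. All named genes were called, so their groups did not overlap. Another pseudocount or a sample left out therefore could not turn their direction, and much of this agreement was fixed in advance. Genes higher in hindbrain numbered 657, but 1149 with those flanks, 1533 with equal covered length, 259 with median centring, 200 after adjustment for GC content and length, 3301 by groups that did not overlap, and 197 to 497 with 1 sample left out. Genes higher in carcass numbered 262, but 446 with peaks of at least 600 bp, 426 with equal covered length, 1521 by groups that did not overlap, and 165 to 389 with 1 sample left out. Windows higher in hindbrain numbered 1390, but 745 with peaks of at least 600 bp, 4912 with equal covered length, 7273 by groups that did not overlap, and 0 to 1833 with 1 sample left out. Windows higher in carcass numbered 1252, but 595 with a pseudocount of 0.1, 2084 with equal covered length, 5856 by groups that did not overlap, and 0 to 1819 with 1 sample left out. The counts of 0 came without carcass 1 or 2, where the lone carcass was assumed to vary like the hindbrains and 5314 and 5845 windows had an unadjusted p below 0.05. Hindbrain stretches numbered 5159, but 1615 with peaks of at least 600 bp, 13570 with equal covered length, and 5814 to 12395 with 1 sample left out. Carcass stretches numbered 41294, but 5193 with equal covered length, 26536 with no hindbrain peak within 1 kb, and 42678 to 85606 with 1 sample left out. In settings added after seeing the data, TGATTNAT stood in 1.31% to 2.73% of hindbrain and 5.85% to 10.6% of carcass stretches. Equal covered length kept the longest peaks, so it also removed more short peaks in carcass than in hindbrain. The cause of these changes was not tested. The number of carcasses limits every test. Since depth is unknown, a gene with no peak may hold 5fC below the level that a peak needs.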
